A study of Cucumis sativus with 33 samples.

Results

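In corollas of normal cucumber ovaries, 316 of 23248 genes fell sharply in the yellow bud and stood near their earlier level again in the open flower. These genes, called trough genes here, were chosen by their measured values in the normal libraries. Each had a mean of at least 10 RPM (reads of a gene scaled to the library total) on day 3. Its day 4 mean was at most the day 3 mean divided by 3, and its day 5 mean was at least 3 times the day 4 mean. The day 5 mean also lay above the day 3 mean divided by 2 and below 2 times that mean, and the day 3 mean was above the day 1 mean divided by 4. The question asked of them was whether super ovaries, whose flowers open later, show a matching trough in their own yellow buds on day 7 or day 8.

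The flowers were female, on plants of the inbred line 6457 (Cucumis sativus), and were bagged to keep pollen out. Normal ovaries (N) came from plants short of fertilizer and water that carried fruits elsewhere, and super ovaries (S) from well supplied plants left with a single fruit near the growing point, so nutrition and fruit load changed together. Day numbers start at the labeling of an ovary once it was visible. Normal corollas were green buds on day 1 (N1), green yellow buds on day 3 (N3), yellow buds on day 4 (N4) and open on day 5 (N5). Super corollas were green buds on day 1 (S1), green yellow buds on days 3, 4 and 5 (S3, S4 and S5), yellow buds on days 7 and 8 (S7 and S8) and open on day 9 (S9). Each group had 3 libraries, and each library pooled 5 corollas. The study calls the pools biological replicates, and the labels do not say whether they came from separate plants, harvests or hours of the day. The p-values therefore cover no more than the spread among pools.

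The corolla is the ring of petals. While a cucumber flower opens, petal cells stop dividing, enlarge by taking up water behind loosening walls, lose chlorophyll and fill with yellow carotenoids. Sugar supply, hormones such as ethylene, gibberellin and auxin, and the daily clock are known to set the timing of petal opening in flowering plants. The deposited table gives gene identifiers without names, and 0 of them matched the RefSeq table used for names, so roles of single trough genes cannot be given.

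About 16858673 to 24643178 reads stood behind each library, as estimated from the steps in its values. These totals include the 1 assumed to have been added to each gene. The highest belongs to N5 replicate 2, whose steps did not pass the stricter test described below. All 316 trough genes were among the 18905 genes tested, which they had to be, since each had at least 10 RPM in N3. Scaling touches every result below. The factors that bring the median gene of all libraries to one level were 0.778 to 0.813 in N4 and 0.823 to 0.844 in S8, against 0.984 to 1.01 in N3 and 1.13 to 1.16 in S5. Yellow bud values therefore rise relative to green yellow bud values when libraries are rescaled by them. The median change of all genes tested from S5 to S8 was -0.43 on the log2(RPM + 1) scale as deposited and -0.05 after rescaling. S7 replicate 3 and S1 replicate 3 stood apart from the other pools of their groups in the trough genes, and values that turned or moved by over 1.5 times without one of them are given both ways.

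In the normal course the trough genes together made up 1.51%, 1.81% and 1.52% of the 3 N1 libraries. They held 2.88%, 2.77% and 2.70% in N3 and 0.593%, 0.447% and 0.591% in N4. In the open flower they held 3.22%, 2.96% and 3.22%. All N4 libraries lay far below the rest of the normal course, and N4 replicate 2 was the lowest. These values chose the genes and are a description. In such bulk samples, fewer cells of a type and less RNA per cell cannot be told apart.

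The median trough gene stood at 28.4 RPM in N1, 43.1 in N3, 7.02 in N4 and 46.4 in N5. The ratio of N3 to N4 had a median of 5.05 and ran from 3.00 to 57.2, and that of N5 to N4 had a median of 5.67 and ran from 3.01 to 74.6. A fall of 10-fold or more was seen in 53 genes, and a return of 10-fold or more in 59. In 13 genes the N4 mean was under 1 RPM, and in 10 it still was 100 RPM or more. N5 stood at 1.09 times N3 in the median gene. The N4 libraries did not overlap those of N3 and N5 in 313 of the 316 genes. That share is 34.7% over all genes tested, and nothing is read from it because the same libraries chose the genes.

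The limits were not natural breaks. The trough gene nearest the limit on the fall had N3 at 3.00 times N4, and the nearest gene that missed this limit alone had 2.99 times. 142 genes missed that limit alone, 198 missed the limit on the return alone, and 323 missed the 10 RPM limit alone. The choice was also repeated on 2 replicates of every normal group and read in the libraries left out. Without replicate 1, 309 genes were chosen, and 249 of them (80.6%) passed both 3-fold limits in the replicate 1 libraries. The same held for 270 of 288 genes (93.75%) in replicate 2 and for 253 of 332 (76.2%) in replicate 3. Among the other genes at 10 RPM or more in the left-out N3 library, 243 of 11793, 328 of 11842 and 199 of 11636 passed both limits. After rescaling, the rule chose 210 genes, of which 203 were among the 316, and the median trough gene then stood at 44.0 RPM in N3, 8.96 in N4 and 50.1 in N5 (means over 3 libraries).

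**Figure D1:**
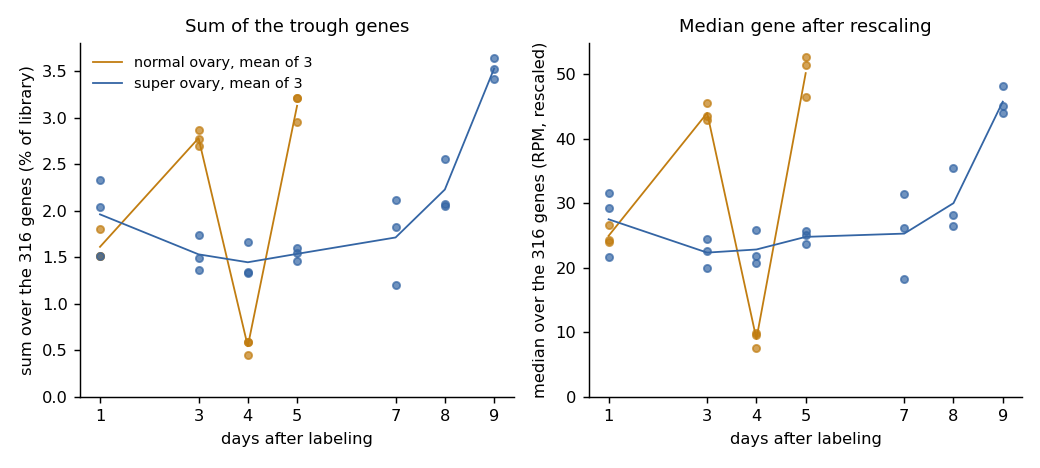
Left, the sum of the 316 trough genes as a percentage of each library against days after labeling; right, the median of these genes in RPM after rescaling libraries by the median of gene ratios. Points are libraries and lines join the means of 3. The normal course drops on day 4 to 0.447% to 0.593% of a library, a level that the choice of the genes set low. The super course reaches no such level and rises to 3.42% to 3.65% on day 9.

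By their sum, the genes as a group had no low stage in the super course. They held 2.34%, 2.04% and 1.52% of the S1 libraries, and 1.49%, 1.37% and 1.74% in S3. In S4 they held 1.35%, 1.33% and 1.66%, and in S5 1.46%, 1.61% and 1.55%. The yellow buds held 2.11%, 1.83% and 1.20% in S7 and 2.05%, 2.56% and 2.08% in S8. The open S9 flowers held 3.65%, 3.52% and 3.42%. No S7 or S8 library came near the N4 values, which the choice of the genes had set low. Of the 6 yellow bud libraries, 5 lay above all S5 libraries, and S7 replicate 3 lay below them. All S9 libraries lay above every other super library. Every S3, S4 and S5 library held less than any N3 library, and the choice of the genes set the N3 level high.

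Gene by gene, the fall into the yellow bud was about as frequent among the trough genes as among all genes. From S5 to S7, 34 of the 316 were called lower (10.8%), against 8.64% of all genes tested, and 31 were called higher (9.81% against 3.25%). From S5 to S8, 85 were called lower (26.9% against 28.8%) and 90 higher (28.5% against 9.67%). The median trough gene changed by -0.09 on the log2(RPM + 1) scale from S5 to S7 and by 0.01 from S5 to S8, where the median of all genes tested changed by -0.19 and -0.43. After rescaling, these medians were 0.11 and 0.45 for trough genes and -0.02 and -0.05 for all genes tested, so the direction at S7 turned. It also turned without S7 replicate 3, to 0.11. After rescaling, 24 trough genes were lower in S7 than in S5 (7.59% against 5.12%) and 38 higher (12.0% against 4.66%). In S8, 56 were then lower than in S5 (17.7% against 17.6%) and 124 higher (39.2% against 15.7%). Between the yellow bud days, 44 genes were called higher in S8 than in S7 (13.9% against 5.58%) and 31 lower (9.81% against 9.13%), and after rescaling 74 higher (23.4% against 8.3%) and 15 lower (4.75% against 4.88%). Without S7 replicate 1 the number higher in S8 than in S7 was 75, without S7 replicate 3 it was 10, and without S8 replicate 2 it was 28. The share of higher calls moved from 51.4% to 68.9% at S8 with that scaling, and from 47.7% to 61.3% at S7. Calls over all genes tested moved the same way. At S8 they went from 1828 higher and 5446 lower to 2959 and 3324, and at S7 from 615 and 1633 to 881 and 967. On recovered reads, with libraries again rescaled, edgeR called 67 genes higher and 25 lower in S7 than in S5. In S8 it called 127 higher and 56 lower, and the shares of higher calls were 72.8% and 69.4%. Calls over all genes tested were not counted for edgeR. Leaving out S7 replicate 3 raised the genes called higher in S7 from 31 to 68, and leaving out S7 replicate 1 or 2 lowered them to 14 or 16. The genes called lower in S7 numbered 47 without replicate 3.

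The rise into the open flower was more frequent among the trough genes than among all genes. The rule had asked for a 3-fold rise from N4 to N5. Across all genes tested, that step and S8 to S9 had a Pearson r of 0.63. The genes tested were not matched to the trough genes in level or in normal rise. Whether the trough genes differ here from other genes that rise in the normal course was therefore not tested. From S7 to S9, 118 were called higher (37.3% against 10.8% of genes tested) and 10 lower (3.16% against 12.2%). From S8 to S9, 84 were called higher (26.6% against 9.28%) and 6 lower (1.90% against 6.3%). The median trough gene rose by 0.66 in the first step and 0.60 in the second on the log2(RPM + 1) scale, and the median of all genes tested changed by -0.11 and 0.11. Without S7 replicate 3, the rise from S7 had a median of 0.44 and was called in 93 genes. After rescaling, 138 genes rose from S7 to S9 (43.7% against 13.4%) and 8 fell (2.53% against 9.75%). From S8 to S9, 75 then rose (23.7% against 8.46%) and 7 fell (2.22% against 7.13%). S9 was also called higher than S5 in 133 trough genes (42.1% against 12.6%) and lower in 35 (11.1% against 24.1%). After rescaling these were 159 (50.3% against 18.0%) and 19 (6.01% against 15.6%), which moved the share of higher calls from 79.2% to 89.3%. Over all genes tested, the calls went from 2380 higher and 4555 lower to 3412 and 2950.

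**Figure D2:**
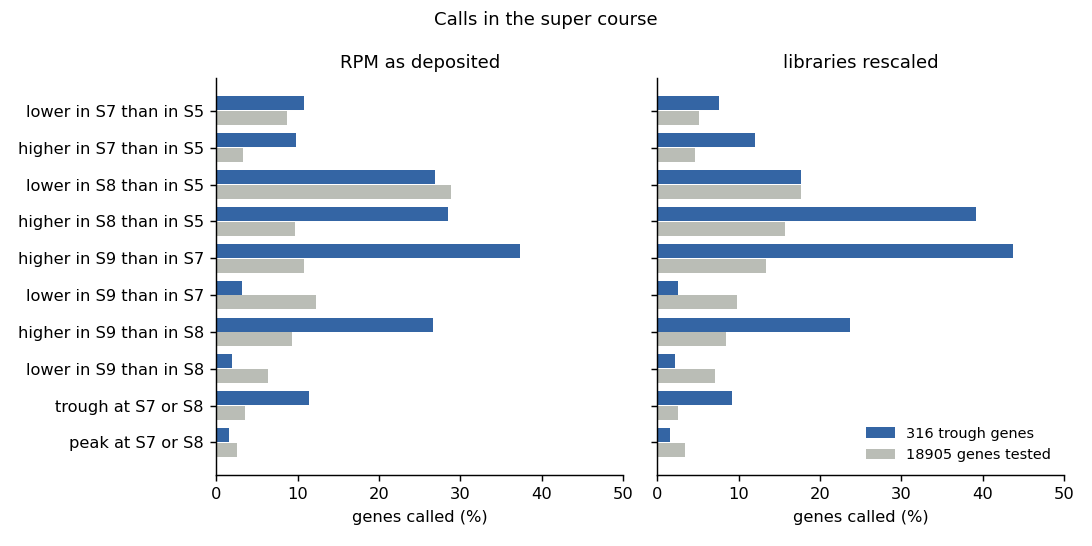
Percentage of genes called by limma (adjusted p under 0.05 and at least 2-fold) in steps of the super course, for the 316 trough genes (blue) and all 18905 genes tested (grey), as deposited on the left and after rescaling on the right. Calls lower in S8 than in S5 reach 26.9% of trough genes beside 28.8% of all genes as deposited, while calls higher in S9 than in S7 reach 37.3% beside 10.8%.

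A matching trough needs both steps. At S7 it was called in 7 genes (2.22%, against 0.365% of genes tested) and at S8 in 36 (11.4% against 3.48%), and the 7 were all among the 36. On either day it was thus called in 36 (11.4% against 3.57%). The genes tested were again not matched to the trough genes in level or in normal course. The other 280 trough genes had no called trough on either day. After rescaling, 8 genes had one at S7 (2.53% against 0.381%) and 28 at S8 (8.86% against 2.35%), 29 in all (9.18% against 2.48%). When the genes were also chosen again after rescaling, 12 of 210 had a trough at S8 (5.71% against 2.35%) and 5 at S7 (2.38% against 0.381%), 13 in all (6.19% against 2.48%). Of the trough genes called lower in S8 than in S5, 42.4% were called higher again in S9, against 12.1% of all genes called lower there. Leaving out S7 replicate 3 gave 11 genes at S7 in place of 7.

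With the fold limits of the normal rule, a trough of group means at S7 or S8 was seen in 14 trough genes, in 1 at S7 and in all 14 at S8. All 14 were among the 272 trough genes with 10 RPM or more in S5 (5.15%, against 0.878% of all genes at that level). The whole rule was also carried over, with S1, S5 and S9 in place of N1, N3 and N5. With S8 as the low day it chose 76 genes, and 13 of them were trough genes, which is 17.1% of the super set and 4.11% of the normal one. With S7 as the low day it chose 5 genes, 1 of them shared. After rescaling both courses, 6 genes were shared between 47 and 210, or 12.8% and 2.86%. Buds between the sampled days were not measured.

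The same day was examined as well, since day 4 is the low day of the normal course. A trough at S4 had to be lower than S3 and followed by a higher S5. By edgeR, which lacked S4 replicate 2, it was called in 0 trough genes. By limma it was called in 0 as well, against 0.0106% of all genes tested. At an unadjusted p under 0.05 in both steps, 1 gene had it, and 0 did with a 2-fold change in both. S4 nevertheless was the group with the lowest super mean for 77 trough genes (24.4%, against 6.03% of genes tested), beside 86 with the lowest mean in S8 (27.2% against 35%) and 22 in S7 (6.96% against 5.29%). After rescaling, S4 was lowest for 89 (28.2% against 9.77%), S8 for 67 (21.2% against 25.3%) and S7 for 23 (7.28% against 6.82%). The highest super mean lay in S9 for 146 (46.2% against 20.7%).

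**Figure D3:**
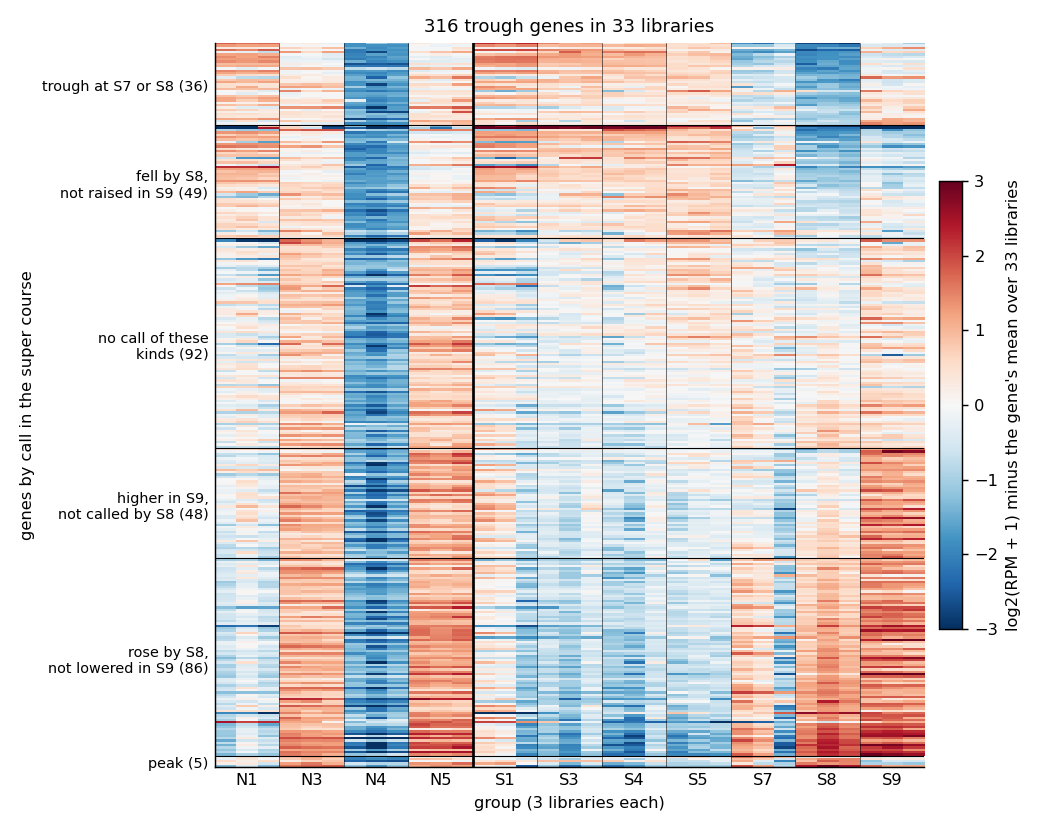
All 316 trough genes (rows) in the 33 libraries (columns, 3 per group; the thick line parts normal from super groups), as log2(RPM + 1) minus the mean of the gene over all libraries. Rows are ordered by the calls in the super course as deposited. The N4 columns are low throughout, while the S8 columns are low in the upper blocks of 36 and 49 genes and high in the lower blocks of 86 and 5.

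The trough genes took several courses in super ovaries. Beside the 36 with a trough, 49 genes fell by S8 and were not raised in S9 (15.5%, against 25.3% of genes tested), with medians of 29.2 RPM in S5, 7.46 in S8 and 12.4 in S9. In the 36 the medians were 40.6 RPM in S5, 22.6 in S7, 10.7 in S8 and 31.9 in S9. The largest block with a call, 86 genes, rose by S8 and was not lowered in S9 (27.2% against 7.54%). Its medians went from 29.3 RPM in S5 to 65.5 in S7, 104 in S8 and 138 in S9. A further 48 genes were not called by S8 and stood higher in S9 than in S5 (15.2% against 5.69%), with medians of 22.1 RPM in S5, 26.3 in S8 and 58.3 in S9. In 5 genes a peak was called at S7 or S8 (1.58%, against 2.51% of genes tested, and 3.38% after rescaling with 5 genes again), and the remaining 92 had no call of these kinds. The blocks were formed after the values were seen and carry no test. They rest on calls as deposited and were not formed again after rescaling. Rescaling changed the genes lower in S8 than in S5 from 85 to 56 and those higher from 90 to 124, so the block sizes are not fixed.

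As deposited, called super troughs were not concentrated among the genes with the deepest normal troughs. Of the 188 genes whose N4 mean was 3 to 5-fold under the lower of N3 and N5, 28 had a called trough at S7 or S8 (14.9%). This held for 5 of 88 genes at 5 to 10-fold (5.68%) and for 3 of 40 at 10-fold or more (7.5%). In that deepest stratum, 3 genes were called lower in S8 than in S5 and 21 higher. The strata were not formed again after rescaling, where 29 of the 316 genes had a called trough, and 13 of the 210 chosen again. How far scaling shaped the difference between strata was not tested. Across the 316 genes, the change from N3 to N4 and that from S5 to S8 had a Spearman rho of -0.28 (Pearson r -0.33), and across all 18905 genes tested a rho of 0.57 (r 0.54). The rises, N4 to N5 and S8 to S9, had a rho of 0.05 among trough genes (r 0.07) and 0.60 among genes tested (r 0.63). With S7 to S9 as the super rise, the rho was 0.46 among trough genes (r 0.39) and 0.56 among genes tested (r 0.60). Genes are not independent replicates, all points share their libraries, and the choice cut the range of the normal steps, so these are descriptions.

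**Figure D4:**
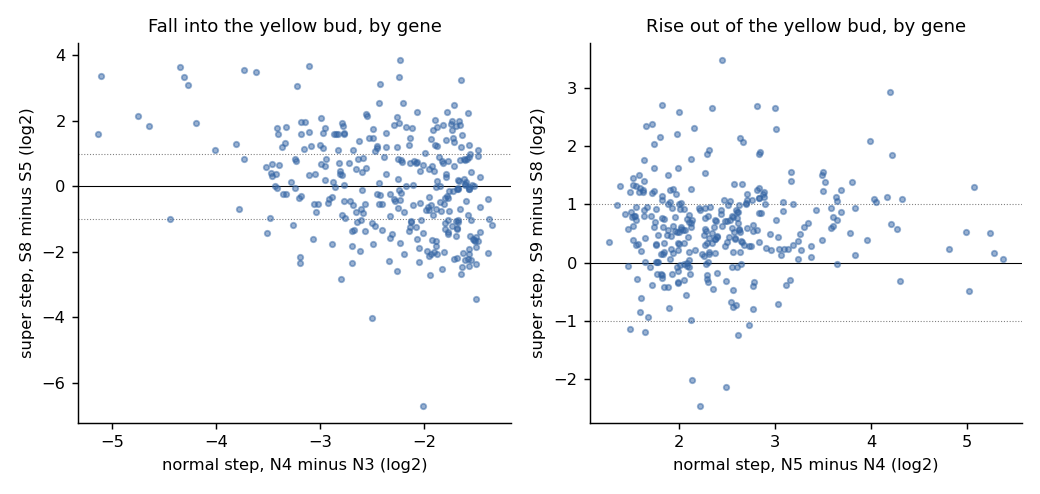
Each point is 1 of the 316 trough genes. The left plot sets the log2(RPM + 1) change from S5 to S8 against that from N3 to N4, and the right plot the change from S8 to S9 against that from N4 to N5; dotted lines mark 2-fold. The super fall spreads on both sides of 0, and the super rise lies above 0 for 259 genes.

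In Csa3G017110, one of the 2 genes with the clearest super trough by the naming rule, N3 libraries stood at 26.6, 15.9 and 25.2 RPM. N4 stood at 1.62, 0.71 and 2.38 RPM and N5 at 15.0, 19.4 and 24.0. In super ovaries it was at 31.5, 34.0 and 33.9 RPM in S4 and at 15.1, 18.5 and 11.0 in S5. The low values in yellow buds recurred without overlap, at 2.43, 1.97 and 2.66 RPM in S7 and 1.91, 2.12 and 2.36 in S8. S9 returned to 22.9, 15.9 and 17.1 RPM. Its change from S5 to S7 was -2.22 (SE 0.26, adjusted p 4.8e-08 by limma) and that from S8 to S9 was 2.63 (SE 0.26, adjusted p 1.3e-09), both on the log2(RPM + 1) scale.

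Csa6G522760, the other one, was high in green buds, at 63.8, 57.6 and 60.3 RPM in N1 and 88.6, 77.6 and 89.1 in S1. It stood at 19.8, 21.5 and 14.2 RPM in N3, 4.26, 7.61 and 5.83 in N4, and 22.0, 18.7 and 21.3 in N5. In S5 it was at 26.1, 23.3 and 33.7 RPM, in S7 at 4.12, 2.86 and 7.40, in S8 at 1.80, 1.73 and 1.40, and in S9 at 15.8, 13.4 and 8.32. All S7 and S8 libraries lay under all S5 and S9 libraries. After rescaling by the median of gene ratios, its N3 mean was less than 3 times its N4 mean, so the rule no longer chose it. The fall from S5 to S8 was -3.43 (SE 0.22, adjusted p 8.3e-14 by limma) and the rise from S8 to S9 was 2.31 (SE 0.22, adjusted p 7.5e-10). S9 stayed below S5 by 1.12 on the log2 scale (adjusted p 4.8e-05).

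The 2 genes at the other end, Csa2G020870 and Csa2G020860, follow each other in the deposited table. Csa2G020870 stood at 124, 136 and 144 RPM in N3, 16.7, 11.1 and 16.5 in N4, and 88.0, 106 and 92.0 in N5. In S5 it was at 19.3, 18.5 and 18.1 RPM, and in S8 at 220, 311 and 223, above all S9 libraries at 137, 88.8 and 90.7. S7 was split, with 156 and 97.8 RPM in replicates 1 and 2 and 21.9 in replicate 3. The rise from S5 to S8 was 3.66 (SE 0.52, adjusted p 4.0e-07 by limma) and the change from S8 to S9 was -1.25 (SE 0.52, adjusted p 0.039).

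Csa2G020860 also stood low in N4 and high in S8. After rescaling by the median of gene ratios, its N5 mean was less than 3 times its N4 mean, and the rule no longer chose it. It was at 51.3, 48.5 and 49.9 RPM in N3, 11.1, 7.76 and 10.5 in N4, and 32.3, 35.3 and 32.6 in N5. In S5 it was at 6.36, 8.00 and 5.42 RPM, in S8 at 66.1, 92.1 and 70.9, and in S9 at 41.3, 42.4 and 34.8. Its S7 libraries stood at 73.4, 48.2 and 6.30 RPM, the last again replicate 3 and within the range of S5. The rise from S5 to S8 was 3.35 (SE 0.47, adjusted p 3.3e-07 by limma), and the change of -0.92 from S8 to S9 was not called (adjusted p 0.091).

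**Figure D5:**
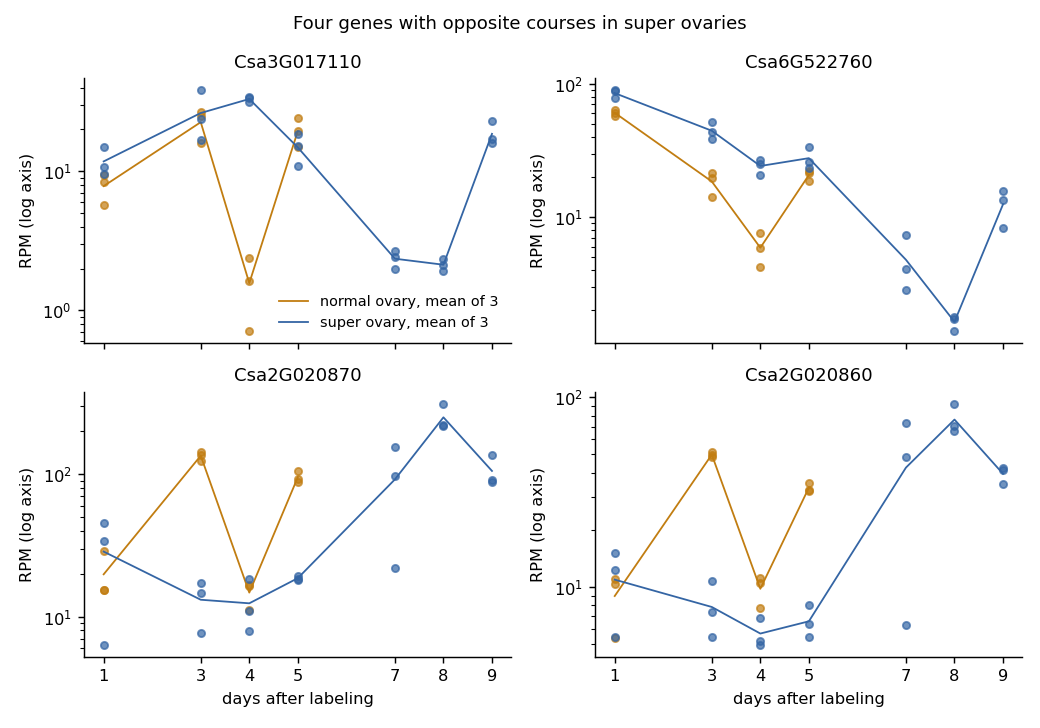
RPM on a log axis against days after labeling for the 4 genes named by rule, with points for libraries and lines through the means of 3. The upper pair is low in N4 and again in S7 and S8; the lower pair is low in N4 and high in S8, with S7 replicate 3 near the S5 level.

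The trough genes also varied more between pools of the same super group than all genes tested did, a measure the choice did not use. The SD of log2(RPM + 1) within groups, pooled over the 7 super groups, had a median of 0.33 over the 316 genes and 0.15 over all genes tested. Among genes with a super mean of 10 RPM or more, the medians were 0.32 over 281 trough genes and 0.13 over 12871 genes tested. An SD above 0.5 was found in 76 trough genes (24.1%) and in 1.73% of genes tested. Here and in the comparisons of pools below, the genes tested were not matched to the trough genes in normal change. Whether other strongly changing genes vary as much was not tested.

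This variation was shared among them. S1 replicate 3 held the lowest of the 3 S1 values for 238 trough genes (75.3%, against 33.4% of genes tested), with a median of -0.45 on the log2 scale from the mean of the other S1 pools. S7 replicate 3 held the lowest S7 value for 203 (64.2% against 28.7%), with a median of -0.57. In S3 the lowest pool was replicate 2 for 197 genes (62.3% against 27.8%). The deviations within groups over the 21 super libraries had a mean pairwise correlation of 0.24 among the trough genes and 0.04 among all genes tested, over pairs of genes that share libraries. Across trough genes, the deviation of S1 replicate 3 and that of S7 replicate 3 had a Spearman rho of 0.66 (r 0.68), against 0.03 (r 0.27) over all genes tested, and 199 of the 316 were lower in both pools (63.0%, against 15.9% of genes tested). These pools had the lowest medians of the 21 super libraries in the same genes, so the share lower in both partly follows from their choice. Over the trough genes no other pair of pools was read in this way.

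The low values of both pools differed between the blocks. In the block of 86 that rose by S8, the median deviation was -1.17 in S1 replicate 3 and -1.60 in S7 replicate 3, and the median SD was 0.50. In the 48 genes higher in S9 and not called by S8 the deviations were -0.95 and -0.84. In the 5 genes with a peak they were -0.47 and -1.36, in the 49 that fell by S8 -0.08 and 0.45, and in the 92 with no call -0.27 and -0.35. In the 36 genes with a super trough they were 0.05 and 0.20, with a median SD of 0.20. S1 values do not enter the calls that formed these blocks, other than through the variance of the fit. Deeper normal troughs went with lower values in these pools, with a rho of 0.45 between the change from N3 to N4 and the deviation of S1 replicate 3 (r 0.52), and of 0.37 for S7 replicate 3 (r 0.44). Over all genes tested these were 0.13 (r 0.24) and -0.14 (r 0.04). Whether the spread between pools had a part in the calls at S7 was not tested beyond leaving out its libraries.

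Earlier in the super course, calls went both ways. From S1 to S3, 17 were called higher (5.38% against 2.11%) and 14 lower (4.43% against 2.51%), and from S1 to S5, 47 higher (14.9% against 6.52%) and 41 lower (13.0% against 6.97%). After rescaling, 45 were higher (14.2% against 5.98%) and 42 lower (13.3% against 7.22%) in S5 than in S1. The lower calls depended on single libraries. Without S1 replicate 3, 57 genes were lower in S3 and 69 in S5, and without S1 replicate 1 or 2 the number lower in S5 was 25 or 23. Without S5 replicate 1 it was 25 as well. The number lower in S3 was 9 without S1 replicate 2, 8 without S3 replicate 2 and 23 without S3 replicate 3. S3 exceeded S1 in 83 of the 316 genes, with a median ratio of 0.796, whereas N3, which the choice set high, exceeded N1 in 246, with a median ratio of 1.88.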

How the data were processed

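RNA-seq was made from 33 corolla libraries, 3 for each of 11 groups. The deposited values are RPM, reads scaled by the authors to the library total. TopHat and HTSeq are named in the submitters' processing notes. Versions were not given in the sources used here, nor were a genome build and an annotation. Every column of the table matched a sample.

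The genes were chosen on mean RPM of the normal groups. The members and lists were chosen with earlier results of these data known. Super libraries, which the choice did not use, were compared on log2(RPM + 1) by limma 3.58.1 (R 4.3.3), with 11 group means in 1 fit and a variance trend. Tests were two-sided and covered the 18905 genes reaching a group mean of 1 RPM in any group, with Benjamini-Hochberg adjustment over all of them. A call needed an adjusted p under 0.05 and a 2-fold change. The method was tested on simulated reads in which genes varied independently and with a fixed spread. Those reads lack the shared variation between pools seen in the trough genes, so that test does not cover it.

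Low values were whole multiples of a step. In every library, 100% of values lay within 0.25 of a whole number of reads, under the assumption that 1 had been added to each gene. Those reads gave library totals and an edgeR 4.0.16 quasi-likelihood test on the 30 libraries that passed a stricter test of the steps. Replicate 2 of N5, S1 and S4 did not pass. The edgeR fit applied TMM factors, so it is a rescaled run as well. Alternatives were pseudocounts of 0.1 and 5, other filters, rescaling by the median of gene ratios or by TMM factors, a replicate block, and leaving out each library. Genes were named by a fixed rule: the 2 lowest and the 2 highest members in the mean of S7 and S8 against the mean of S5 and S9, among those called. None of the 23248 identifiers matched the RefSeq table of 23999 genes (0 matches), so no list of genes by function could be formed, and the corolla label was not checked against markers.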

Additional observations from a re-analysis of the deposited data

Results flagged for a closer look

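In both named genes with a high S8, that group and the normal yellow bud lay on opposite sides of the stages before and after. For Csa2G020870, S8 stood 2.46 above the mean of S5 and S9 on the log2(RPM + 1) scale, and N4 stood at -2.88 from the mean of N3 and N5. For Csa2G020860 these values were 2.14 and -1.97. All 3 S8 libraries lay above all S5 and S9 libraries, and all N4 libraries lay under all N3 and N5 libraries. S7 replicate 3 did not share the high level in either gene. In all, 21 trough genes had S8 above S5 and S9 in this way (6.65%, against 9.42% of genes tested). The difference between the courses was not tested, because N3, N4 and N5 chose the genes.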

How the results depend on the processing

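The rule chose 210 genes with libraries rescaled by the median of gene ratios and 202 with TMM factors, 881 with 2-fold and 188 with 4-fold limits, and 287 to 333 without a single normal library. Genes lower in S8 than in S5 numbered 56, 53 and 56 by the median of ratios, TMM and edgeR, and those lower in S9 than in S5 19, 20 and 21. TMM gave 19 genes lower in S7 than in S5. The median change from S5 to S8 was 0.45 and 0.51 under the median of ratios and TMM. A pseudocount of 5 gave 4 troughs at S7 and 3 peaks. With genes chosen again after rescaling, an alternative added after the data were seen, 12 troughs were called at S8 and 13 at S7 or S8. The 3-fold trough of group means was seen in 9 genes with TMM and 44 with 2-fold limits. The cause of these differences was not tested. Leaving out single libraries gave 6 to 11 troughs at S7 and 23 to 69 genes lower in S5 than in S1. In the mean of S7 and S8 against that of S5 and S9, the 4 named genes kept direction and call under every alternative run. Their membership was less stable. Rescaled by the median of gene ratios, Csa6G522760 missed the limit on the fall and Csa2G020860 that on the return, so neither was among the 210. Their single steps were not compared between the alternatives.

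Replicate numbers shared by groups gave little sign of pairing the libraries, though pairing of some was not excluded. Deviations of same-numbered libraries correlated at a median of 0.01 over 165 pairs, with 34 above 0.1. Those of other numbers correlated at a median of -0.0002 over 330 pairs, with 61 above 0.1. Of 33 libraries, 15 correlated best with their own number. S1 replicate 3 and S7 replicate 3 had an r of 0.27 over all genes tested. With a replicate block, 36 troughs at S8 and 7 at S7 were called.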
